A study of Mus musculus with 4 samples.

Results

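Opioid peptide and opioid receptor genes were followed across the cell classes of the mouse posterior substantia innominata, part of the basal forebrain, in droplet-based RNA sequencing of single nuclei. There are 8 of them among the 31899 genes listed in all 4 libraries. The 4 peptide precursor genes are Penk, Pdyn, Pnoc and Pomc, and the 4 receptor genes are Oprm1, Oprd1, Oprk1 and Oprl1. All 8 were taken by name. The libraries came from wild-type mice aged 8 weeks, 2 from males (male 1 and male 2) and 2 from females (female 1 and female 2), and the purpose of the study was to measure how neurons of this region differ between the sexes. Nothing in the labels says that same-sex libraries are different animals; the p-values below therefore measure only how far these libraries spread, which may be technical.

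Opioid peptides are cut from larger precursors: Penk encodes the precursor of the enkephalins, Pdyn that of the dynorphins, Pnoc that of nociceptin and Pomc that of beta-endorphin and the melanocortins. Their receptors couple to inhibitory G proteins that open potassium channels and close calcium channels. Oprm1 encodes the mu receptor, the main site of action of morphine, Oprd1 the delta receptor, at which enkephalins act, Oprk1 the kappa receptor for dynorphins and Oprl1 the nociceptin receptor. In the rodent striatum, which borders this region, projection neurons with the D2 dopamine receptor are known for enkephalin and those with the D1 receptor for dynorphin.

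Nuclei with 500 to 8000 genes and under 5% mitochondrial counts were kept, 38868 of 40532 barcodes, and 21926 of them fell into 1 class by their own UMI counts (a UMI, unique molecular identifier, marks 1 captured RNA molecule). The classes were cholinergic (Chat and Slc5a7), GABAergic (Gad1 and Gad2), glutamatergic (Slc17a6 and Slc17a7), astrocyte, oligodendrocyte, oligodendrocyte precursor (OPC) and microglia, each with at least 2 UMIs of its pair of genes. GABAergic nuclei were split further by Drd1, Drd2, Tshz1, Moxd1 or Sst, called below the Gad Drd1 to Gad Sst groups, and the rest are the unsplit GABAergic nuclei. A split asked for at least 2 UMIs of its gene, or 3 for Tshz1 and Sst, and nuclei in several Gad groups were put in none. Median UMIs per kept nucleus were 10353 and 9966 in the male libraries, against 4093 and 3791 in the female libraries. The thresholds are on raw UMIs and were not scaled to depth. In male 1, male 2, female 1 and female 2, 19.6%, 20.8%, 47.7% and 46.2% of kept nuclei fell into no class. Of the GABAergic nuclei 76.3%, 78%, 90.8% and 89.5% stayed unsplit. Whether a class, or the unsplit group, holds the same kinds of nuclei in both sexes was not tested. The 2 male libraries shared 23 barcodes and the 2 female libraries 35, and each of the 4 pairs of a male and a female library shared 0. Markers that the rule did not use were highest in their own class for 4 of 4 cholinergic genes, 4 of 5 glutamatergic, 5 of 5 astrocyte, 4 of 4 oligodendrocyte, 4 of 4 OPC and 5 of 5 microglial genes, but for 1 of 3 GABAergic genes. Levels are in CPM, the UMIs of a gene scaled to all UMIs of that class in that library. Slc32a1, the vesicular GABA transporter, averaged 40.5 CPM in GABAergic nuclei and 42.2 in microglia. Of the Gad groups, 4 of 4 D1 projection neuron markers were highest in Gad Drd1, 3 of 4 D2 markers in Gad Drd2, 3 of 3 intercalated-type markers in Gad Tshz1, and 1 of 3 somatostatin neuron markers in Gad Sst. Levels are not divided by gene length, so they are compared between classes and not between genes. Female 1 held only 18 Gad Drd1 and 5 Gad Sst nuclei.

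Penk was highest in the Gad Drd2 group. It stood at 275.9 and 330.4 CPM in the Gad Drd2 nuclei of male 1 and male 2 and at 97.7 and 203.9 in those of female 1 and female 2, against 70.1, 73.6, 29.4 and 85.2 in unsplit GABAergic nuclei of the same libraries. Each library was higher in Gad Drd2 than in its own unsplit nuclei, and all 4 Gad Drd2 values lay above all 4 unsplit ones. The log2 fold was 1.92 ± 0.09 (SE, n = 4 libraries), with an adjusted p of 6.72e-20 by edgeR's quasi-likelihood test within libraries. Its spread was estimated over all Gad groups and the unsplit nuclei together (39.7 degrees of freedom), not from 4 paired differences alone. Between Gad Drd2 and unsplit nuclei 18.1% of the genes tested passed. The RNA was concentrated in part of the nuclei: in male 1, the 77 of 180 Gad Drd2 nuclei with 3 or more UMIs held 92.6% of all 918 Penk UMIs, and the highest nucleus of male 2 held 61. In female 1 no Gad Drd2 nucleus held more than 6.

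**Figure D1:**
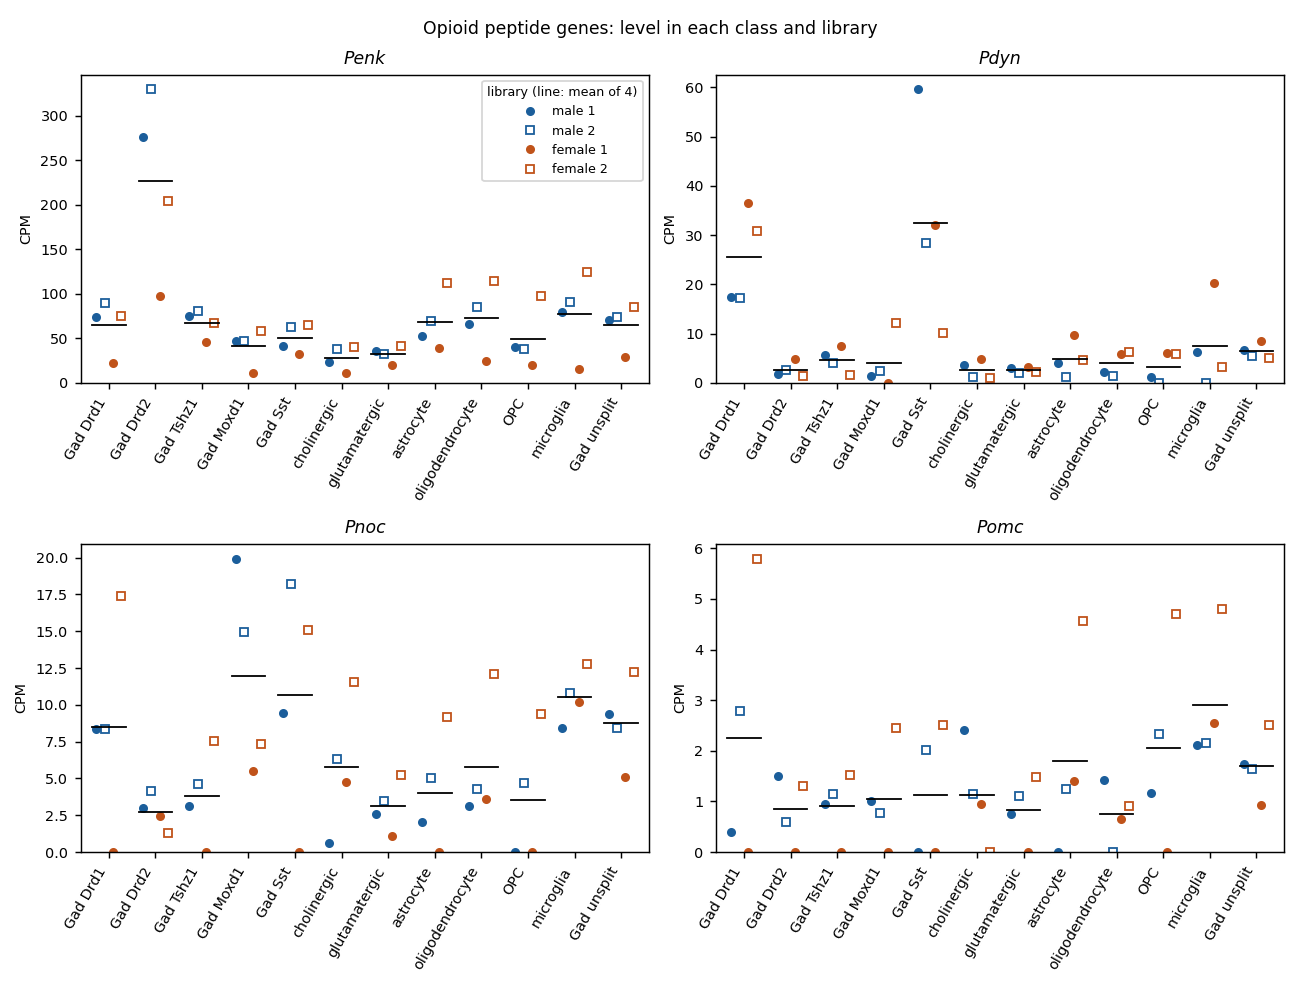
Level of each opioid peptide gene, in CPM, in 12 classes of nuclei, 1 point per library (male libraries blue, female libraries orange; circles replicate 1, squares replicate 2) with the mean of the 4 libraries as a line. Penk is highest in Gad Drd2 nuclei in every library, Pdyn is raised in Gad Drd1 and Gad Sst nuclei, and Pomc stays under 6 CPM.

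Oligodendrocytes, the glial class with the most nuclei, were set beside the neurons for comparison, without a measure of free RNA. They held 65.8, 85.3, 24.0 and 114.0 CPM in male 1, male 2, female 1 and female 2, close to the GABAergic class as a whole (82.8, 91.6, 32.3 and 88.2), and the difference did not pass (log2 fold -0.10 ± 0.13, adjusted p 0.536 by edgeR). For shares at equal depth, nuclei with at least 2000 UMIs were thinned to that number and shallower ones were left out. This dropped no Gad Drd2 nucleus, but 398 of 1015, 428 of 954, 721 of 1204 and 936 of 1387 oligodendrocytes in male 1, male 2, female 1 and female 2, so the shares of oligodendrocytes describe the deeper nuclei of the class. Of the thinned nuclei 28.9%, 38.3%, 22.6% and 27.6% held a Penk UMI in Gad Drd2, against 11.7%, 13.1%, 3.31% and 16.6% in oligodendrocytes. Before thinning these shares were 71.7%, 72.8%, 42.5% and 56.9% in Gad Drd2 nuclei and 18.3%, 20.8%, 5.57% and 21.9% in oligodendrocytes, at median depths of 15610, 15910, 6722 and 11280 UMIs and of 2155, 2091, 1824 and 1499 UMIs. The Gad Drd2 share was thus above the oligodendrocyte share in each library at equal depth. That of unsplit GABAergic nuclei was 11.2%, 11.3%, 5.71% and 15.1%, below the oligodendrocyte share in all libraries except female 1. Before thinning the unsplit nuclei had median depths of 12080, 11770, 5690 and 6019 UMIs. Thinning evens out depth but not the share of free RNA in a nucleus, which was not measured. The order of these 2 shares therefore cannot place Penk of unsplit nuclei at background. The share does not show how the UMIs were spread over nuclei. In unsplit GABAergic nuclei 145, 147, 7 and 51 held 5 or more Penk UMIs, with 38, 46, 9 and 19 in the highest nucleus, against 2, 3, 0 and 1 oligodendrocytes, with 6, 16, 2 and 5 in the highest. Unsplit nuclei with high Penk were thus present, most of them in the males, although these counts are not at equal depth. Female 1 had the lowest Penk level of the 4 libraries in every class, from 10.95 to 97.7 CPM. Penk overlaps A830012C17Rik on the opposite strand, which stood at 14.6, 14.2, 15.3 and 12.7 CPM in GABAergic nuclei and was not low in female 1. Penk was lower than in the GABAergic class in cholinergic nuclei (log2 fold -1.32 ± 0.18, adjusted p 8.5e-07) and in glutamatergic nuclei (-1.21 ± 0.15, adjusted p 7.1e-07). It was also lower in Gad Moxd1 than in unsplit GABAergic nuclei (-0.69 ± 0.13, adjusted p 1.1e-04). Cholinergic nuclei held 23.5, 38.3, 11.4 and 39.8 CPM in male 1, male 2, female 1 and female 2. Glutamatergic nuclei held 35.2, 32.6, 19.5 and 41.6, and Gad Moxd1 nuclei 46.6, 46.8, 10.95 and 58.7. In each library these levels lay below that of oligodendrocytes, and how much of them is free RNA was not tested.

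**Figure D2:**
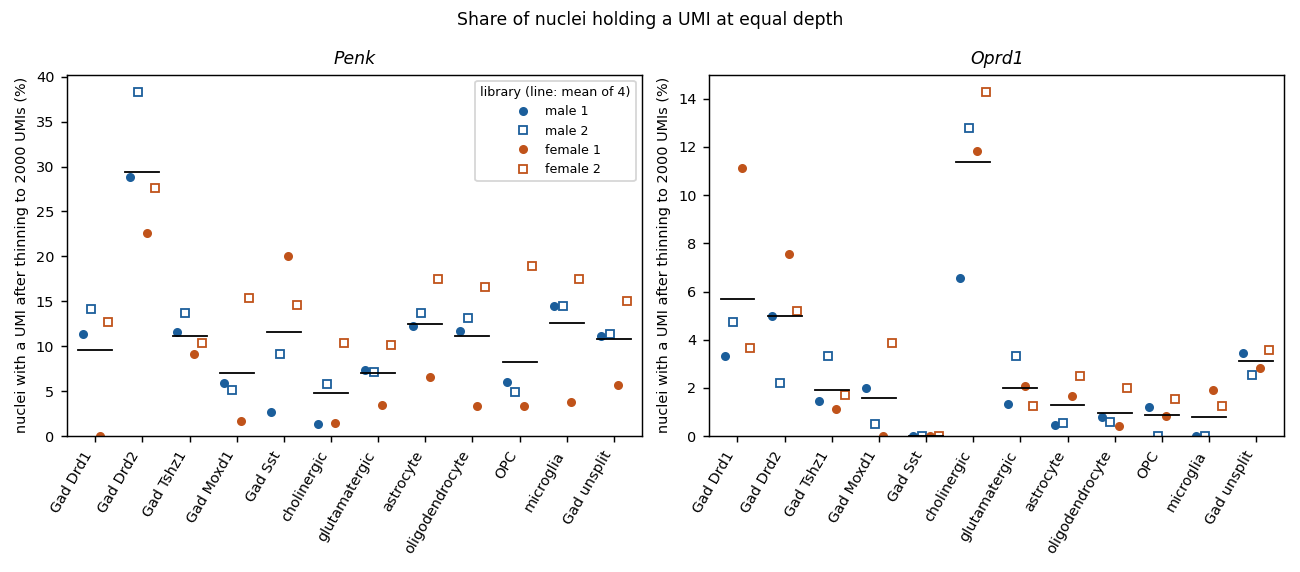
Percent of nuclei holding at least 1 UMI of Penk or Oprd1 among nuclei of at least 2000 UMIs, each thinned to that number, by class and library (points) with the mean of the 4 libraries as a line. For Penk the Gad Drd2 points lie between 22.6% and 38.3%, and for Oprd1 the cholinergic points lie between 6.58% and 14.3%.

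Pdyn was raised in the Gad Sst and Gad Drd1 groups. In Gad Drd1 nuclei it stood at 17.5, 17.2, 36.5 and 30.9 CPM in male 1, male 2, female 1 and female 2, against 6.65, 5.48, 8.51 and 5.13 in unsplit GABAergic nuclei. The value of female 1 rests on 5 UMIs. The groups did not overlap, and the log2 fold was 1.72 ± 0.26 (adjusted p 5.9e-06, edgeR, with 6.29% of the genes tested passing). In Gad Sst nuclei Pdyn stood at 59.6, 28.3, 32.1 and 10.0 CPM, with 38, 14, 1 and 4 UMIs behind these values, and the log2 fold over unsplit nuclei was 2.59 ± 0.34 (adjusted p 1.0e-06, with 2.87% of genes passing). Without female 1, whose Gad Sst nuclei number 5, it was 2.64 (adjusted p 1.2e-05), and without male 1, which holds most of the UMIs, 1.88 (adjusted p 0.0481). At equal depth 4%, 1.57%, 11.1% and 5.45% of Gad Drd1 nuclei held a Pdyn UMI, against 1.04%, 1.01%, 1.49% and 1.08% of unsplit nuclei and 0.486%, 0%, 1.03% and 1.33% of oligodendrocytes. The 0% is 0 of 526 thinned nuclei, which allows a share of up to 0.570%. The Gad Drd1 shares are of 150, 127, 18 and 55 nuclei, where 3 nuclei make 2%, 2.36%, 16.7% and 5.45%. Few nuclei carry them. In Gad Sst 5.41%, 6.06%, 20% and 0% of 37, 33, 5 and 48 thinned nuclei held one, the 0% allowing up to 6.25%. Thinned to 1000 UMIs the Gad Drd1 shares were 0%, 2.36%, 0% and 5.45%, against 0.57%, 0.403%, 0.894% and 0.532% of unsplit nuclei. The excess was then absent in male 1 and female 1. Before thinning the shares were 19.3%, 17.3%, 27.8% and 9.09% in Gad Drd1 nuclei and 0.788%, 0.419%, 1.495% and 1.51% in oligodendrocytes. Gad Moxd1 nuclei held 1.35, 2.30, 0 and 12.2 CPM of Pdyn, female 2 lying above its own unsplit nuclei and the 0 of female 1 allowing up to 8.21. Pdyn was lower than in unsplit nuclei in Gad Drd2 (-1.29 ± 0.38, adjusted p 0.0137) and Gad Moxd1 (-1.36 ± 0.44, adjusted p 0.0298), and both of these calls were lost without male 1 (adjusted p 0.186 and 0.515), without male 2 (0.0769 and 0.215) and with DESeq2 (0.0748 and 0.207). The Gad Moxd1 call was lost without female 1 too (adjusted p 0.101).

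The promoter of Pdyn is shown because Pdyn had the largest log2 fold of the opioid genes tested between the D1 and D2 groups. RefSeq (GRCm38.p6) gives it 2 starts, and the 250 bases before the upstream one, on the minus strand, read:
Pdyn, chr2:129699939-129700188: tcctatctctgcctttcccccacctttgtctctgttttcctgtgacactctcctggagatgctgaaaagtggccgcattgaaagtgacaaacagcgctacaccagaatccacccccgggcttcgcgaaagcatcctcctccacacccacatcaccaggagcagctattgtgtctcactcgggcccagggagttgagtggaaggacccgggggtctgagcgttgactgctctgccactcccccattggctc
None of the motifs searched on both strands (the E-box CACGTG, the cAMP response element TGACGTCA, the AP-1 site TGANTCA, the homeodomain core TAATTA and the GC box GGGCGG) is in this window or in that of the other Pdyn start. Of 32851 promoter windows of the same length, 6.02%, 1.55%, 6.75%, 4.84% and 32.7% hold them in that order.

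Set directly against each other, Gad Drd1 and Gad Drd2 nuclei differed in 4 of the 7 opioid genes tested (4.14% of all genes passed, 1.74% higher and 2.41% lower). Pdyn was higher in Gad Drd1 (log2 fold 3.02 ± 0.40, adjusted p 1.9e-06) and so was Oprk1, the receptor for its peptides (1.32 ± 0.20, adjusted p 2.5e-05). Penk was lower (-1.82 ± 0.12, adjusted p 1.5e-14). Pdyn of the Gad Drd2 group stood at 1.80, 2.67, 4.89 and 1.30 CPM in male 1, male 2, female 1 and female 2. These values rest on 6, 9, 4 and 1 UMIs. Pnoc was higher in Gad Drd1 as well (1.40 ± 0.38, adjusted p 0.0249), and that call was lost when male 1, male 2 or female 2 was left out (adjusted p 0.199, 0.117 and 0.109), without the deepest nuclei (0.0919) and with nuclei of several Gad groups kept (0.0643).

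Pnoc, the nociceptin precursor, was low throughout, from 5.03 to 11.7 CPM in the GABAergic class. It was highest on average in Gad Moxd1 nuclei, at 19.9, 15.0, 5.48 and 7.34 CPM in male 1, male 2, female 1 and female 2, against 9.41, 8.43, 5.10 and 12.2 in unsplit nuclei. The Gad Moxd1 values of female 1 and female 2 rest on 2 and 3 UMIs, too few to give a direction. Of the libraries only female 2 was lower in Gad Moxd1, and the ranges of Pnoc overlapped. Its log2 fold was 0.81 ± 0.20 (adjusted p 0.0037, with 12.8% of genes passing), and the call was lost without male 1 (0.49, adjusted p 0.493), without male 2 (adjusted p 0.103) and with DESeq2 (adjusted p 0.154). Pnoc was lower than in unsplit nuclei in Gad Drd2 (-1.41 ± 0.28, adjusted p 2.4e-04) and in Gad Tshz1 (-1.22 ± 0.27, adjusted p 9.6e-04), the second lost without male 1 (adjusted p 0.142). Glutamatergic nuclei held less than GABAergic ones (-1.40 ± 0.32, adjusted p 0.0028), a call lost without male 2 (adjusted p 0.0558). Microglia held 8.43, 10.8, 10.2 and 12.8 CPM on 21 UMIs in all, close to the GABAergic level.

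Pomc, best known from the hypothalamic arcuate nucleus, was low in every class, with few UMIs outside the GABAergic one. The GABAergic class held 1.503, 1.502, 0.83 and 2.54 CPM in male 1, male 2, female 1 and female 2, on 236 UMIs in all. No class reached 6 CPM in any library. Microglia stood at 2.11, 2.16, 2.54 and 4.80 CPM, but on 1, 1, 1 and 3 UMIs, too few to compare with neurons. Pomc passed the low-count filter in the GABAergic male against female comparison and in the sex by class comparisons of GABAergic with glutamatergic or cholinergic nuclei, and nowhere else. How much of these levels is free RNA was not tested.

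Oprd1 was highest in cholinergic nuclei. Its level there was 65.1, 61.7, 68.3 and 95.4 CPM in male 1, male 2, female 1 and female 2, against 15.0, 15.1, 14.9 and 19.1 in GABAergic nuclei. The lowest cholinergic library lay more than 3 times above the highest GABAergic one. The log2 fold was 2.25 ± 0.15 (SE, n = 4), with an adjusted p of 1.5e-13 by edgeR in a comparison in which 23% of genes passed. Here the spread was estimated over all main classes together (31.05 degrees of freedom). With the 12 classes ordered by their mean, the step from cholinergic nuclei to Gad Drd2 nuclei (36.6 in their highest library) was the only one, over all 8 genes, at which neighbours did not overlap in range. At equal depth 6.58%, 12.8%, 11.9% and 14.3% of cholinergic nuclei held an Oprd1 UMI, against 3.28%, 2.52%, 2.93% and 3.48% of GABAergic nuclei and 0.81%, 0.57%, 0.414% and 2.0% of oligodendrocytes. Before thinning it was 46.1%, 48.8%, 31.6% and 48.7% of cholinergic nuclei, against 16.2%, 16.1%, 7.71% and 11.9% of GABAergic nuclei. In oligodendrocytes it was 1.58%, 1.78%, 1.08% and 1.88%. Median depths were 20340, 19330, 7299 and 8770 UMIs in cholinergic nuclei and 12430, 11980, 5733 and 6133 in GABAergic nuclei. Those of oligodendrocytes were 2155, 2091, 1824 and 1499. Of the Oprd1 UMIs in classed nuclei, the GABAergic class held 80.8%, 79.1%, 72.8% and 72.4%. Cholinergic nuclei held 10.3%, 10.5%, 18.3% and 16.2%.

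Oprm1 was higher in cholinergic nuclei too, by less. It stood at 166.9, 153.8, 139.5 and 158.3 CPM there, against 105.0, 104.8, 129.7 and 110.4 in GABAergic nuclei. All 4 cholinergic values lay above all 4 GABAergic ones, and the log2 fold was 0.56 ± 0.14 (adjusted p 0.0023). The call was lost without male 1 (0.48, adjusted p 0.0665). The promoters of these 2 receptors are shown together because both genes were higher in cholinergic nuclei. Capitals mark matches to CACGTG and GGGCGG or its reverse complement, and each window holds the 250 bases before a RefSeq start (GRCm38.p6):
Oprd1, chr4:132144487-132144736, minus strand: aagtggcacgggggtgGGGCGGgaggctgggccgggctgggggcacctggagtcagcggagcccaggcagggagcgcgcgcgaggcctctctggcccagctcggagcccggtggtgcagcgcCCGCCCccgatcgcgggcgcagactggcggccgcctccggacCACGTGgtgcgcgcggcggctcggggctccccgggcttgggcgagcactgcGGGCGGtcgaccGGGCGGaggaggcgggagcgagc
Oprm1, chr10:6788326-6788575, plus strand: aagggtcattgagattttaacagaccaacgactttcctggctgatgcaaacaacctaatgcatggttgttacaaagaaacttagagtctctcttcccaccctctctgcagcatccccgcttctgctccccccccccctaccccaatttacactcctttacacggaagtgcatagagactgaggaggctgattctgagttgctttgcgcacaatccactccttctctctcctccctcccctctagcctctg
The Oprd1 window is 80% G and C, with 4 matches to GGGCGG and 1 to CACGTG, whereas the Oprm1 window is 50.8% G and C with no match to any motif searched. Windows were found for 5 of the 8 genes, 10 windows in all.

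**Figure D3:**
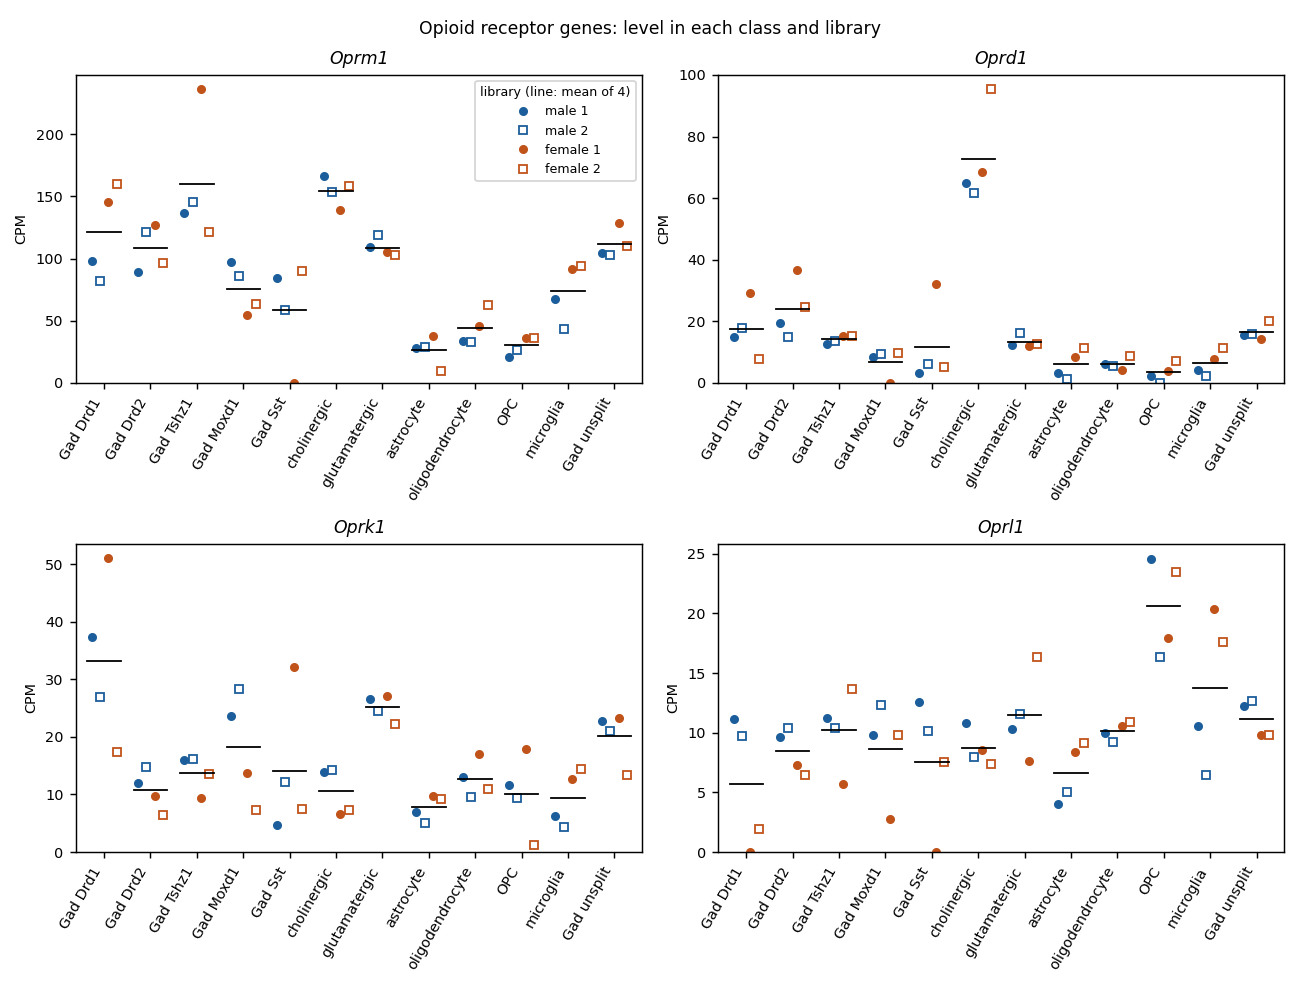
Level of each opioid receptor gene, in CPM, in 12 classes of nuclei, 1 point per library (male libraries blue, female libraries orange; circles replicate 1, squares replicate 2) with the mean of the 4 libraries as a line. The cholinergic points of Oprd1 (61.7 to 95.4) stand above all others, and the female 1 points of the Gad Sst group rest on 5 nuclei.

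Among the Gad groups Oprm1 had its highest mean in Gad Tshz1, at 136.8, 145.7, 236.4 and 121.1 CPM in male 1, male 2, female 1 and female 2, against 104.6, 103.1, 128.3 and 110.2 in unsplit nuclei. Each library was higher in Gad Tshz1 than in its own unsplit nuclei, by the most in female 1. In female 2 the Gad Drd1 nuclei, at 160.4 CPM, stood above the Gad Tshz1 ones. edgeR gave a log2 fold of 0.49 ± 0.11 (adjusted p 0.0021, with 11.5% of genes passing), and with DESeq2 the adjusted p was 0.107. In Gad Sst nuclei female 1 held 0 Oprm1 UMIs, which in 5 nuclei allows up to 96.4 CPM, and the other libraries held from 58.7 to 90.4. All 4 glial classes were lower than the GABAergic class, by -2.03 ± 0.21 in astrocytes, -1.98 ± 0.20 in OPCs, -1.37 ± 0.14 in oligodendrocytes and -0.83 ± 0.19 in microglia (highest adjusted p 3.2e-04). Oprm1 (chromosome 10, 6758506 to 7038198, plus strand in GENCODE vM21) overlaps Ipcef1 (6885796 to 7052478) on the opposite strand. Since the sources used here do not say whether counting used the strand, reads of the pair may be mixed. Ipcef1 did not move with Oprm1 between these classes in the males: it stood at 14.5, 18.3, 40.8 and 22.0 CPM in cholinergic nuclei, against 26.5, 27.3, 42.9 and 25.5 in GABAergic nuclei.

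Oprd1 was lower in Gad Moxd1 than in unsplit nuclei, at 8.45, 9.21, 0 and 9.79 CPM against 15.5, 15.8, 14.1 and 20.04. The 0 of female 1 allows up to 8.21. This is a log2 fold of -0.91 ± 0.24 (adjusted p 0.0061), and the call was lost without male 1 (adjusted p 0.102) or male 2 (0.0567). In the glial classes Oprd1 ran from 0 (OPCs of male 2, a 0 that allows up to 3.49) to 11.4 CPM, lower than in GABAergic nuclei in all 4 classes (log2 folds -2.37 to -1.39, highest adjusted p 7.5e-04). In astrocytes the call was lost with the class thresholds raised by 1 UMI (-0.77, adjusted p 0.135).

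Oprk1, the kappa receptor gene, had its highest mean in Gad Drd1 nuclei, at 37.4, 26.9, 51.0 and 17.4 CPM in male 1, male 2, female 1 and female 2, against 22.8, 21.1, 23.2 and 13.4 in unsplit nuclei. Each library was higher in Gad Drd1 than in its own unsplit nuclei, although the ranges overlapped, and the Gad Drd1 values of female 1 and female 2 rest on 7 and 9 UMIs. The log2 fold was 0.58 ± 0.15 (adjusted p 0.0116), and the call was lost without male 1 (0.41, adjusted p 0.578), with DESeq2 (adjusted p 0.122) and with thresholds raised by 1 UMI (adjusted p 0.478). Oprk1 was lower in Gad Drd2 than in unsplit nuclei (-0.74 ± 0.16, adjusted p 7.9e-04), lower in cholinergic than in GABAergic nuclei (-0.73 ± 0.23, adjusted p 0.021) and lower in each of the 4 glial classes (-1.45 to -0.63, highest adjusted p 0.0041). The cholinergic call was lost without male 1 (adjusted p 0.0836), without female 1 (0.119) and without the deepest nuclei (0.0515), and the microglial one without male 1 (0.0574). In Gad Tshz1 the log2 fold was -0.47 ± 0.15 (adjusted p 0.0392), a call lost under 8 of 11 alternatives, among them leaving out male 1, male 2 or female 1 (adjusted p 0.334, 0.195 and 0.161). Glutamatergic nuclei stood at 26.6, 24.6, 27.1 and 22.3 CPM, in female 2 above Gad Drd1, and their difference from the GABAergic class did not pass.

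Oprl1, the nociceptin receptor gene, had its highest mean in OPCs and not in neurons. OPCs held 24.6, 16.3, 17.9 and 23.5 CPM in male 1, male 2, female 1 and female 2, against 11.8, 12.2, 9.34 and 9.59 in GABAergic nuclei. In female 1 microglia, at 20.4 CPM, stood above OPCs. All 4 OPC values lay above all 4 GABAergic ones, and the log2 fold was 0.89 ± 0.22 (adjusted p 0.0011 by edgeR). These levels rest on 64 Oprl1 UMIs in OPCs. At equal depth 2.4%, 4.88%, 3.31% and 3.57% of OPCs held one, against 2.51%, 2.28%, 2.08% and 2.07% of GABAergic nuclei and 1.95%, 1.52%, 1.86% and 2.0% of oligodendrocytes, so the share in male 1 did not follow its level. Shallower nuclei left out here were 5, 7, 30 and 105 OPCs. Before thinning the shares were 11.6%, 8.19%, 5.96% and 5.98% of OPCs, at median depths of 4482, 4351, 2889 and 2324 UMIs. The summed level of the 4 OPC marker genes was 7258 to 10960 in OPCs and 1701 to 1886 in GABAergic nuclei. Astrocytes held less Oprl1 than GABAergic nuclei (-0.83 ± 0.32, adjusted p 0.0257), and that call was lost without male 1 (-0.54, adjusted p 0.257), without male 2 (adjusted p 0.159), with DESeq2 (0.0576) and with class thresholds raised by 1 UMI (-0.47, adjusted p 0.39).

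**Figure D4:**
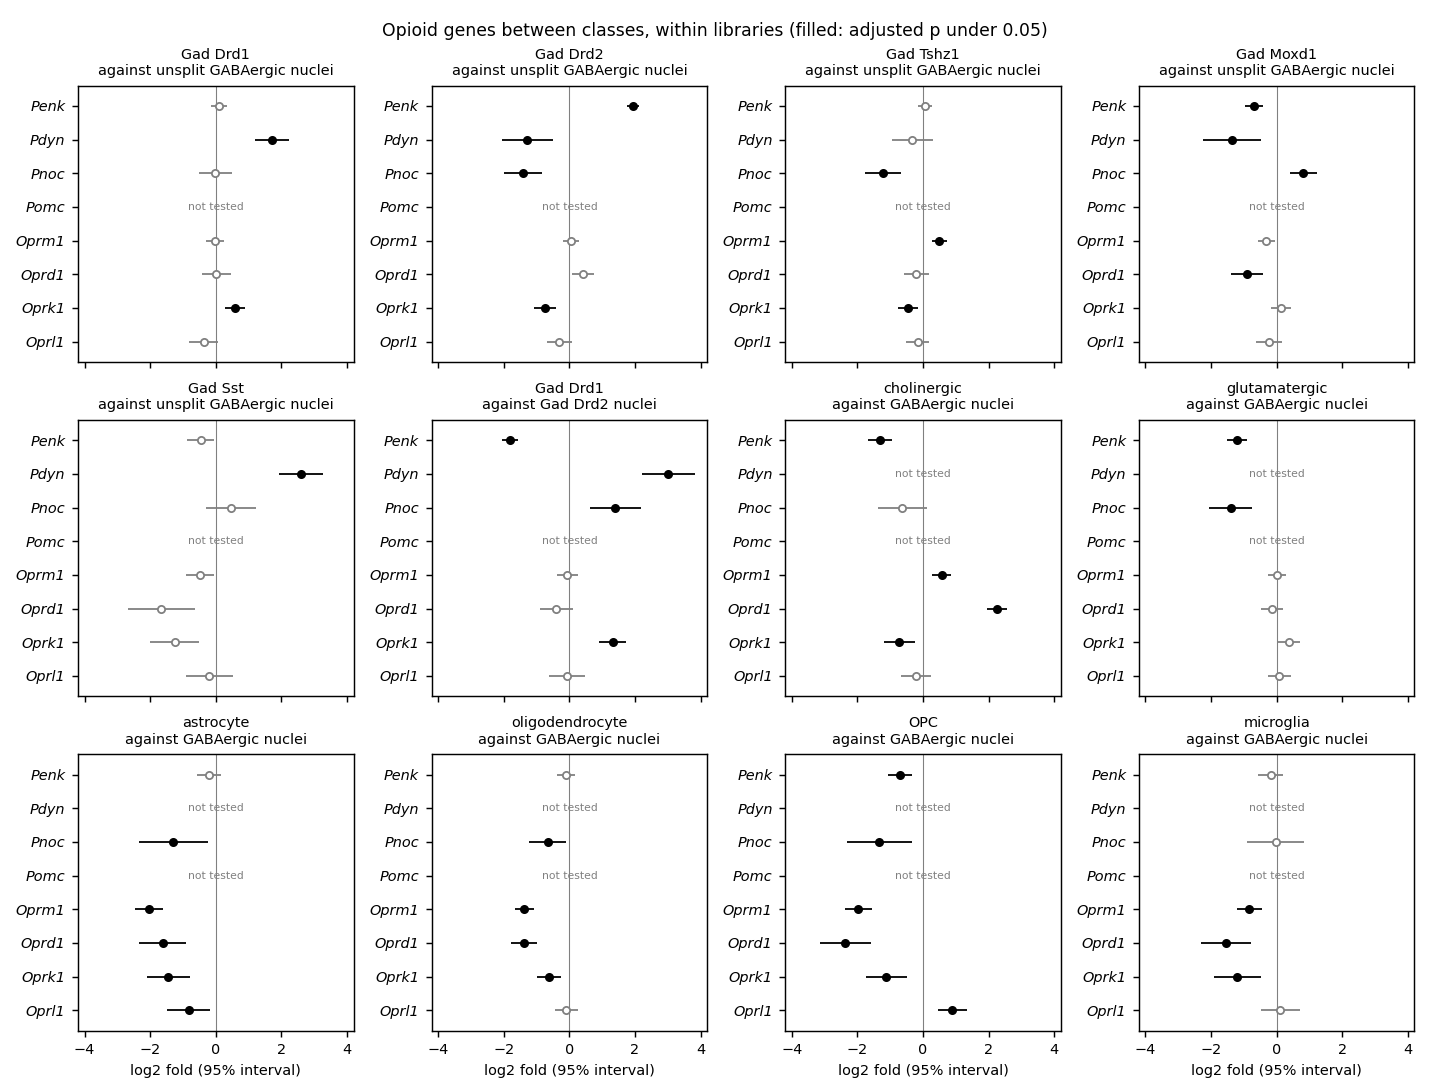
Log2 folds of the opioid genes between classes, fitted within libraries by edgeR, with 95% intervals (bars); filled points passed at an adjusted p of 0.05 and open points did not, and genes under the low-count filter are marked as not tested. Oprd1 in cholinergic nuclei (2.25), Penk in Gad Drd2 nuclei (1.92) and Pdyn in Gad Sst nuclei (2.59) are the highest of their panels.

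Counted over the classes, the receptors and peptides split as follows, read against the share of all genes that passed. Cholinergic nuclei had 2 opioid genes higher and 2 lower than GABAergic nuclei out of 6 tested (Oprd1 and Oprm1 higher, Penk and Oprk1 lower), where 23% of all genes passed, 11.6% higher and 11.4% lower, with a median log2 fold of -0.42 over the 6 genes and -0.02 over all genes. Glutamatergic nuclei had 0 higher and 2 lower of 6, where 8.31% of all genes passed, 4.1% higher and 4.21% lower. Astrocytes had 0 higher and 5 lower of 6, where 56% passed, 28% higher and 28% lower. Oligodendrocytes had 0 higher and 4 lower of 6, where 65% passed, 34.3% higher and 30.8% lower. OPCs had 1 higher and 5 lower of 6, where 46.6% passed, 23.7% higher and 22.9% lower. Microglia had 0 higher and 3 lower of 6, where 55.2% passed, 28.1% higher and 27.1% lower. With about as many genes passing between glia and neurons as not, the glial counts are a description. In OPCs Penk (-0.70 ± 0.19, adjusted p 0.0022) and Pnoc (-1.33 ± 0.48, adjusted p 0.0232) were among the genes lower, and both calls were lost without male 1 (adjusted p 0.0684 and 0.168) and without male 2 (0.0698 and 0.0558); that of Pnoc was lost without female 1 too (0.0535). Pnoc was lower in astrocytes (-1.29 ± 0.51, adjusted p 0.0325) and oligodendrocytes (-0.66 ± 0.28, adjusted p 0.0364), and leaving out male 1 or male 2 ended both calls (adjusted p 0.0724 to 0.217), as did leaving out female 1 in astrocytes (0.0894) and DESeq2 in oligodendrocytes (0.0655). Against unsplit GABAergic nuclei 7 of the genes were tested. Gad Drd1 had 2 higher and 0 lower, where 3.37% of all genes were higher and 2.92% lower. Gad Drd2 had 1 higher and 3 lower (8.69% of all genes higher and 9.44% lower), Gad Tshz1 1 higher and 2 lower (5.82% and 5.64%), Gad Moxd1 1 higher and 3 lower (5.63% and 7.14%) and Gad Sst 1 higher and 0 lower (1.57% and 1.3%). Of the 42 calls between classes, 15 were kept under every alternative and 24 were lost when the library term was left out of the fit. The 15 include Penk in Gad Drd2, Pdyn in Gad Sst, Oprd1 in cholinergic nuclei and Oprl1 in OPCs.

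By likeness across the 12 classes (Pearson's r of mean log2 levels, a description over classes that share libraries), Penk was most like Adora2a (r 0.89), Impg1 and Stk31. Adora2a, the A2a adenosine receptor gene of D2 projection neurons, averaged 38.6 CPM in Gad Drd2 nuclei. Oprd1 was most like Epha8, Dgkk and Gm38572. Epha8 had its highest mean in Gad Sst nuclei (17.1 CPM), of which female 1 held 5. Dgkk, a diacylglycerol kinase gene, and Gm38572 were highest in cholinergic nuclei, averaging 154.1 and 10.3 CPM. For the other genes the 3 most alike were Shq1, Celsr3 and Clmp for Oprm1, Doc2a, Trhr and Skap1 for Oprk1, Zfp442, Cenpt and Atad5 for Oprl1, Katnip, Dynlt2b and Mpv17l for Pdyn, and Tor1aip2, Cep83os and Hspa4 for Pnoc. These orders rest on 12 values and 12840 candidate genes.

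Within the GABAergic class, nuclei holding both an enkephalin and a mu receptor UMI were somewhat more frequent than the product of their separate shares. Thinned to 2000 UMIs, 91, 95, 52 and 96 nuclei of male 1, male 2, female 1 and female 2 held both, where the product of the shares gives 80.9, 80.8, 37.9 and 77.2. The ratio was 1.12, 1.18, 1.37 and 1.24, and free RNA and doublets enter it as well; their share in it was not tested. The pairs Pdyn with Oprk1, Pnoc with Oprl1, Pdyn with Oprm1 and Pdyn with Penk came together in 0 to 7 nuclei per library, too few to read. Oprm1 with Oprk1 gave ratios of 1.02, 0.976, 1.33 and 1.13, and Penk with Oprd1 gave 1.59, 1.33, 1.25 and 0.907, on 7 to 24 nuclei. Thinned to 1000 UMIs, Penk with Oprm1 kept ratios of 1.17, 1.07, 1.42 and 1.45, whereas Penk with Oprd1 came together in 0, 0, 1 and 2 nuclei where the product gives 3.99, 3.95, 1.03 and 4.97, so the excess of that pair was not kept.

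The machinery around the opioid genes was followed in a list of 39 genes for peptide processing, peptide breakdown, G proteins, RGS proteins, effectors and desensitization. In cholinergic nuclei 11 of the 34 tested were higher than in GABAergic nuclei and 4 lower (23% of all genes passed), with a median log2 fold of 0.11, against -0.02 over all genes. The prohormone convertases Pcsk2 (1.46, adjusted p 3.3e-11) and Pcsk1 (1.12, adjusted p 2.2e-07), which cut peptide precursors, were among those higher, as were Adcy1, an adenylyl cyclase (1.66, adjusted p 2.2e-13), and Grk5, a receptor kinase (1.29, adjusted p 2.9e-11). Pam, which amidates peptides, was lower (-0.61, adjusted p 3.8e-06). In glutamatergic nuclei 7 were higher and 3 lower (8.31% of all genes passed), with Pcsk1 highest (1.47, adjusted p 9.2e-11) and Rgs9, a regulator of G proteins in striatal neurons, lowest (-0.97, adjusted p 6.6e-08).

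In the Gad Drd2 group 6 of 36 pathway genes were higher and 5 lower than in unsplit nuclei (18.1% of all genes passed). Of the 6 RGS genes 4 were higher, led by Rgs14 (1.46, adjusted p 7.2e-09), and of the 8 effector genes Adcy5, the cyclase typical of the striatum, was higher (1.43, adjusted p 6.6e-17), while Adcy8 (-1.07, adjusted p 2.4e-10), Kcnj6 (-0.79, adjusted p 1.2e-07) and Kcnj3 (-0.56, adjusted p 1.8e-05) were lower. Kcnj3 and Kcnj6 encode subunits of the potassium channels that opioid receptors open. In Gad Tshz1, where Oprm1 had its highest mean of the Gad groups, both were higher (Kcnj6 0.67, adjusted p 2.8e-07; Kcnj3 0.45, adjusted p 3.0e-04), 2 of the 3 pathway genes higher there, with none lower (11.5% of all genes passed). Of the same 36 genes, Gad Drd1 had 4 higher and 2 lower (6.29% of all genes passed), Gad Moxd1 had 5 and 5 with Pam the highest (1.41, adjusted p 3.1e-12; 12.8% of all genes passed), and Gad Sst had 3 and 2 (2.87% of all genes passed). Pcsk2 was higher in Gad Drd1, Gad Drd2, Gad Moxd1 and Gad Sst alike (0.57, 0.98, 0.73 and 0.94). In glia the 8 effector genes tested were lower in 7 cases in astrocytes, 7 in oligodendrocytes, 6 in OPCs and all 8 in microglia, where 28%, 30.8%, 22.9% and 27.1% of all genes were lower.

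Between males and females, none of the opioid genes passed the test in any class. In the GABAergic class, with all 8 tested, the male over female log2 folds ran from -0.13 for Oprm1 to 0.64 for Penk, and 0.00545% of all genes passed (1 of 18345). Penk stood at 82.8 and 91.6 CPM in male GABAergic nuclei, against 32.3 and 88.2 in female ones, so female 2 lay between the 2 males and female 1 below them. Its log2 fold of 0.64 had a 95% interval from -0.67 to 1.94 (adjusted p 0.555 by edgeR). The fold was 0.20 without female 1 and 1.46 without female 2, and both passed (adjusted p 2.4e-04 and 3.6e-21) in fits in which the lone female is assumed to vary as the males do. Most other opioid genes passed in such fits too. Oprl1, whose log2 fold was 0.41 (adjusted p 0.338) with all libraries, passed without female 1 (0.54, adjusted p 3.6e-05) and without female 2 (0.39, adjusted p 0.00685). Oprm1 passed in opposite directions, at 0.14 without female 1 (adjusted p 0.0066) and -0.28 without female 2 (adjusted p 3.6e-06). Without female 1 Oprk1 (0.94, adjusted p 1.1e-19) and Pdyn (0.37, adjusted p 0.0385) passed, and without female 2 Pnoc (0.81, adjusted p 3.6e-05) and Pomc (0.88, adjusted p 0.0412). For Oprm1 the log2 fold of -0.13 had an interval from -0.56 to 0.31, and for Oprd1 that of -0.09 from -0.54 to 0.35. A fold that missed the threshold does not show equal levels. In GABAergic nuclei Xist stood at 0.035 and 0.037 CPM in males, against 1249 and 1168 in females. The Y-linked Eif2s3y stood at 119.9 and 126.4 CPM in males, against 0.052 and 0 in females. With only 1 gene passing there, at most 1 of these 2 did. The test could thus miss even a difference of that size. In the other classes 0.0631% of all genes passed in glutamatergic, 0.0498% in cholinergic, 0.0446% in Gad Tshz1 and 0.294% in Gad Moxd1 nuclei.

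In Gad Drd2 nuclei Penk stood at 275.9 and 330.4 CPM in males, against 97.7 and 203.9 in females. Both males lay above both females. The log2 fold was 1.05 ± 0.27 (interval 0.40 to 1.71), with an unadjusted p of 0.00703 and an adjusted p of 0.293 by edgeR, and 0.0629% of all genes passed. Without female 1 the fold was 0.67, without female 2 it was 1.58 and without male 1 it was 1.18, and each of these passed (adjusted p 2.8e-04, 5.8e-19 and 0.0285), the lone library again being assumed to vary as the other sex does. Other folds with an unadjusted p under 0.05 were Oprd1 in Gad Drd2 (-0.82, adjusted p 0.409, and -1.14 with adjusted p 0.0072 without female 2), Penk in Gad Tshz1 (0.52, adjusted p 0.416), Oprk1 in cholinergic (1.04, adjusted p 0.499) and, in Gad Moxd1, Oprk1 (1.36, adjusted p 0.271), Oprm1 (0.66, adjusted p 0.255) and Pnoc (1.47, adjusted p 0.333). In Gad Moxd1 the values of female 1 and female 2 rest on 2 and 3 UMIs for Pnoc and on 5 and 3 for Oprk1. The female libraries differed from each other more than the male ones: over the genes tested in the GABAergic class, the SD of the log2 difference was 0.26 between male 1 and male 2 and 1.07 between female 1 and female 2. Oprk1 shows it too, at 22.1 and 21.1 CPM in male GABAergic nuclei, against 22.2 and 13.1 in female ones.

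**Figure D5:**
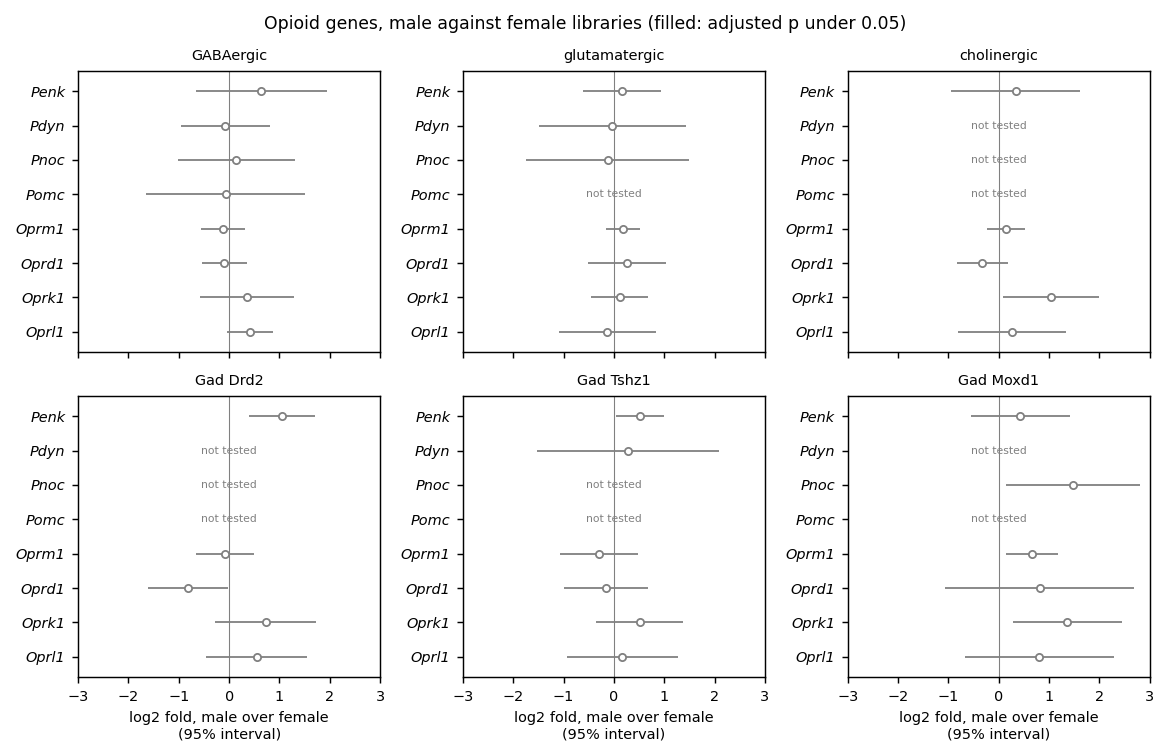
Male over female log2 folds of the opioid genes in 6 classes of nuclei, each with 30 nuclei or more per library, with 95% intervals (bars). All points are open, since no fold passed at an adjusted p of 0.05. Intervals lie above 0 for Penk in Gad Drd2 (1.05) and Gad Tshz1 nuclei and for Oprk1 in cholinergic nuclei. In Gad Moxd1 nuclei those of Oprk1, Oprm1 and Pnoc do too, and that of Oprd1 in Gad Drd2 nuclei lies below 0.

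The fold between the sexes was compared between classes as well. For glutamatergic against GABAergic nuclei 0.79% of genes passed the test of that difference and none of the 8 opioid genes did, Oprm1 coming nearest (log2 difference 0.33 ± 0.13, unadjusted p 0.00846, adjusted p 0.368). Among 5 further pairs of classes, chosen after the levels were seen, the lowest adjusted p of an opioid gene was 0.525. Xist and the Y-linked Eif2s3y, Kdm5d, Uty and Ddx3y were as labelled, with at most 23 UMIs of any of them in GABAergic nuclei of a library of the other sex. Sex went together with depth, with the Cell Ranger version in the file headers (9.0.1 in both males, 7.0.0 in female 1 and 7.2.0 in female 2), with the set of barcodes and with the gene list, and these cannot be told apart.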

How the data were processed

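The authors deposited, for each library, raw UMI counts per gene and barcode. Cell Ranger 6.0.1, Seurat 5 and mm10 are named in the submitters' processing notes, whereas per the file headers Cell Ranger 9.0.1 (males), 7.0.0 (female 1) and 7.2.0 (female 2) made the matrices; the labels name reagent kits of 2 versions without tying them to libraries. The deposited counts summed to 158132452, 144035342, 53098268 and 53679351 UMIs in male 1, male 2, female 1 and female 2. Counts were analysed over 31899 genes shared by identifier. Nuclei in more than 1 class (13.2%, 12.1%, 5.16% and 5.54%) were dropped and no doublet caller was run. Sums of UMI counts by class and library were tested with edgeR 4.0.16 in R 4.3.3 (quasi-likelihood, TMM, filterByExpr, Benjamini-Hochberg adjustment at 0.05, two-sided), with library as a block between classes and without it between the sexes. Gad Drd1 (18 nuclei in the smallest library) and Gad Sst (5) were not tested between sexes, which required 30. Between classes, all main classes were fitted together, as were all parts of the GABAergic class, and each fit shared its estimate of the spread. DESeq2 1.42.0 and other settings served as alternatives. SE is the log2 fold over the root of the F statistic. The scripts were tested on simulated data. Same-numbered libraries of the 2 sexes deviated together with a correlation of 0.11 at most, and numbers were not used to pair them. UMI shares and levels cover counting error only. The members, the pathway list and the markers were chosen with earlier results of these data known. The rule for genes named was all 8 members, pathway genes with the largest and smallest folds in a role group, and the 3 genes most alike in pattern.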

Additional observations from a re-analysis of the deposited data

How the results depend on the processing

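Of the 42 opioid gene calls between classes, 15 were kept under every alternative, 27 were lost under some and 0 changed sign; leaving out male 1 lost 16, male 2 lost 12, female 1 lost 5 of 42 and female 2 lost 1 of 38, and DESeq2 lost 8 of 41. The causes were not tested. Counts of all genes called moved as follows. Between the sexes (1 GABAergic, 8 glutamatergic, 5 cholinergic, 7 Gad Drd2, 5 Gad Tshz1 and 31 Gad Moxd1), DESeq2 called 901, 179, 94, 65, 55 and 124. Without the low-count filter 3 were called in GABAergic, 19 in cholinergic, 1 in Gad Drd2, 640 in Gad Tshz1 and 600 in Gad Moxd1 nuclei, and 1612 between glutamatergic and GABAergic nuclei. Without the library term the counts were 257 glutamatergic, 1161 cholinergic, 4674 oligodendrocyte, 3703 OPC, 43 Gad Drd1, 288 Gad Drd2, 185 Gad Tshz1, 354 Gad Moxd1, 46 Gad Sst and 29 for Gad Drd1 against Gad Drd2. With class thresholds raised by 1 UMI they were 320 in Gad Drd1, 870 in Gad Tshz1 and 101 in Gad Sst. With each library left out in turn the sex counts ran from 2 to 11102 in GABAergic, 6 to 2414 in glutamatergic, 4 to 1644 in cholinergic, 171 to 1913 in Gad Drd2, 7 to 1376 in Gad Tshz1 and 111 to 1222 in Gad Moxd1 nuclei, the highest each time with 1 female left out. The class counts ran from 606 to 1091 in glutamatergic, 250 to 829 in Gad Drd1, 1050 to 2046 in Gad Drd2, 585 to 1495 in Gad Tshz1, 707 to 1633 in Gad Moxd1 and 123 to 402 in Gad Sst nuclei, 141 to 476 for Gad Drd1 against Gad Drd2 and 21 to 238 for sex by class.

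Uncalled male over female folds in GABAergic nuclei changed sign for Pdyn without the filter (0.0) and with libraries left out (-0.35 to 0.37), for Pomc without the filter (0.02) and with libraries left out (-0.54 to 0.88), and with libraries left out for Oprk1 (-0.01 to 0.94), Oprd1 (-0.13 to 0.05), Oprm1 (-0.28 to 0.14) and Pnoc (-0.22 to 0.81). With the replicate number as a block, Pomc had a fold of 0.08, and 4 genes were called in GABAergic, 37 in glutamatergic, 62 in cholinergic, 152 in Gad Tshz1 and 236 in Gad Moxd1 nuclei; the pairing has no basis in the labels, and same-numbered libraries correlated at 0.003 to 0.11. Low counts limit Pomc, Pnoc and the female 1 groups of 5 and 18 nuclei.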

Other observations

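Nuclei that fell into no class, which no comparison used, held Penk at 72.7, 69.9, 24.1 and 113.2 CPM in male 1, male 2, female 1 and female 2, with female 1 again the lowest.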
